A study of Mus musculus with 20 samples.

Results

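Haemostasis genes were described in whole lymph nodes of Rag1-deficient mice: 9 genes of the 56258 in the deposited gene table. They are Serpinc1 (antithrombin), Tfpi, Thbd, Procr, F3, F5, F13a1, Vwf and Plat. The members were chosen from their measured values across the 5 node sites, so their own levels are given as a description and no test is made of them. The study collected bulk polyA RNA from nodes that drain the duodenum, jejunum, ileum and ceco-colon, and from the inguinal node, which drains skin and served as its non-gut reference. Each position has 4 libraries, 20 in all, and the study asked how these nodes differ when mature T and B cells are missing. All 5 groups carry the same genotype, Rag1-/- (B6.129S7-Rag1tm1Mom/J), and the same age of 9 weeks. Libraries are numbered within a position, but the labels do not say that they come from separate animals, so the spread between them may be partly technical.

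Haemostasis begins when tissue factor meets plasma factor VII, and it runs through a cascade of proteases and cofactors to thrombin and fibrin. Endothelium holds it in check with antithrombin, tissue factor pathway inhibitor and the thrombomodulin and protein C receptor pair, while plasmin dissolves the clot. Most circulating factors, antithrombin included, are made by the liver, whereas von Willebrand factor is made by endothelial cells and megakaryocytes and the factor XIII A subunit by cells of the monocyte and macrophage lineage.

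Totals of estimated counts per library ran between 148.2 M and 304.6 M, and 29411 genes passed the filter on low counts, all 9 members among them. Of all genes tested, 26.3% differed between gut-draining and inguinal nodes by edgeR's quasi-likelihood test at an adjusted p below 0.05, 13.4% higher and 12.9% lower in gut-draining nodes. Between small intestinal (duodenum, jejunum and ileum) and ceco-colonic nodes 16.6% differed, 8.9% higher and 7.74% lower in small intestinal nodes, and 21.3% differed somewhere among the 4 gut positions. Duodenal libraries 1 and 2 stood apart by pancreatic acinar transcripts, whose 7 markers summed to between 9.15 and 27698 CPM (estimated counts scaled to a common library total) within the duodenum. Without those 2 libraries every member's log2 difference moved by less than the spread between replicates. Lymph node stroma was present in every library: the 8 fibroblastic reticular markers summed to 553 to 938 CPM in gut-draining and 714 to 812 CPM in inguinal nodes. In whole nodes, fewer cells of a type and less RNA per cell cannot be told apart.

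Averaged over all 20 libraries, levels per transcript length placed Procr first among the 9 genes, at 52.2 ± 5.65 TPM (abundance scaled by transcript length and library total; SD over 20 libraries). Vwf followed at 40.2 ± 16.3 TPM, Thbd at 25.1 ± 6.73 TPM, Tfpi at 24.4 ± 3.39 TPM and F3 at 16.7 ± 3.12 TPM. Plat stood at 6.9 ± 2.04 TPM, F13a1 at 5.51 ± 2.45 TPM, Serpinc1 at 4.83 ± 2.9 TPM and F5 at 0.419 ± 0.296 TPM. Neighbours in this pooled order overlap within 1 SD, except that F3 lay under Tfpi and above Plat, and F5 lay under Serpinc1. The order differed by position: Procr stood above Vwf in gut-draining nodes, at 51.6 ± 5.89 and 33 ± 6.95 TPM, whereas Vwf was first in inguinal nodes, at 69.2 ± 5.4 TPM, with Procr at 54.7 ± 4.3 TPM. Thbd and Tfpi overlapped in gut-draining nodes, at 22.4 ± 4.46 and 24.2 ± 3.77 TPM, and Thbd lay above Tfpi in inguinal nodes, at 35.6 ± 1.28 and 25.3 ± 0.692 TPM. The genes also differed in how far apart the positions lay. The SD between position means of log2 CPM was 5.63 times the SD within positions for Serpinc1, 2.36 times for Vwf, 1.81 times for Thbd and 1.76 times for F5. It was 1.37 times for F3, 1.36 times for Tfpi and 1.04 times for F13a1, and the spread within positions was the larger one for Procr (ratio 0.969) and Plat (0.792).

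**Figure D1:**
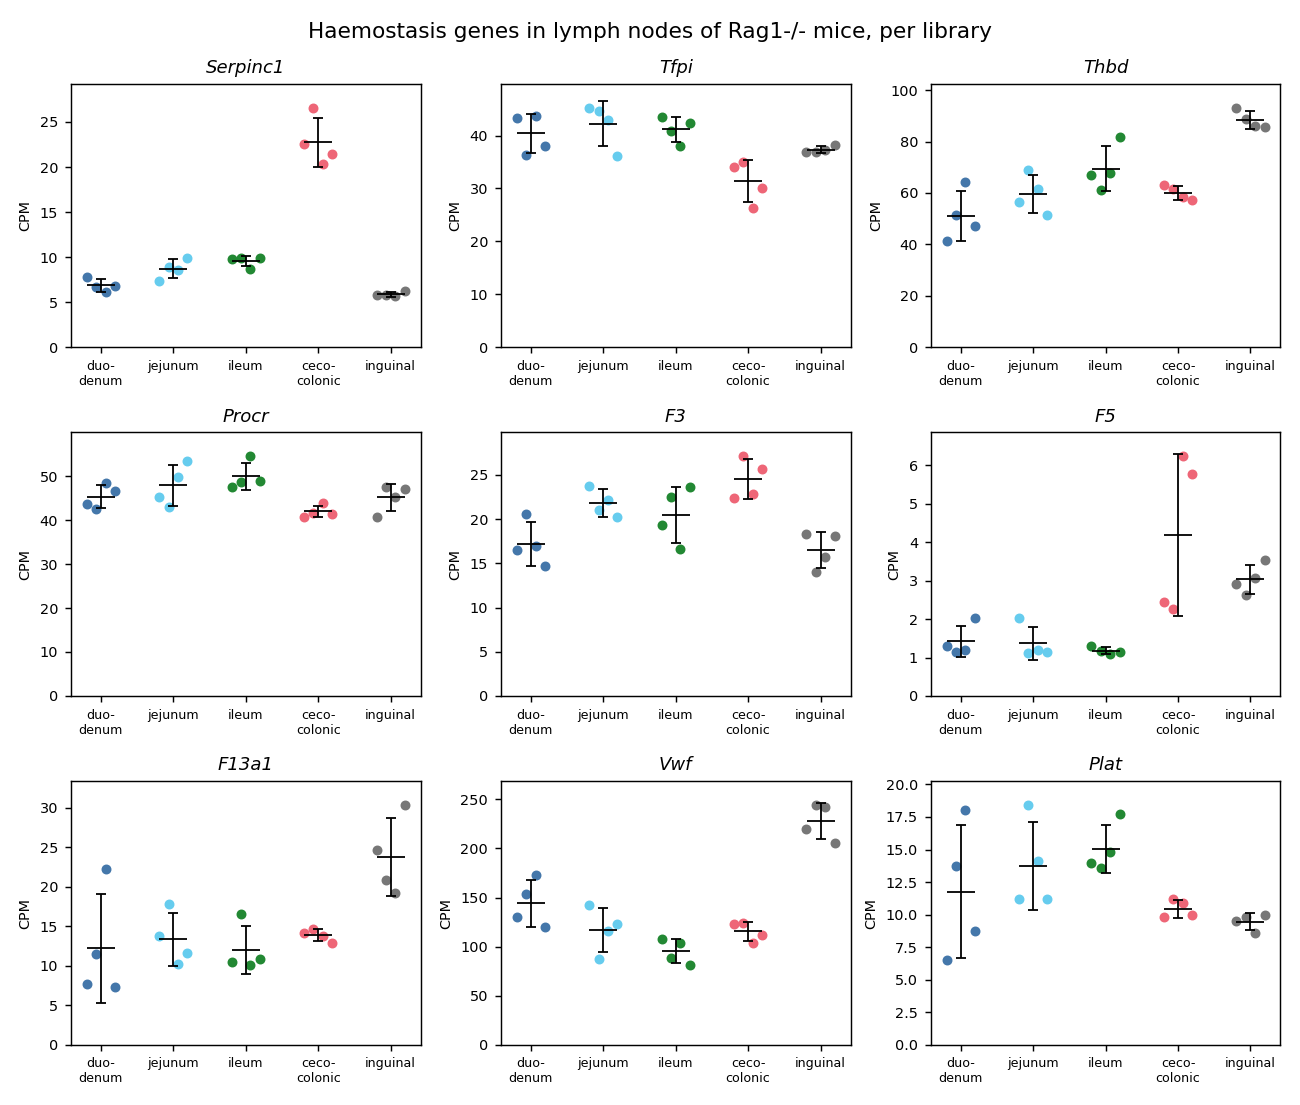
CPM of each of the 9 genes per library (points), with the mean and SD of each position (black bars; n = 4 libraries per position). Serpinc1 is highest in all 4 ceco-colonic libraries, Vwf and Thbd are highest in all 4 inguinal libraries, and Procr is nearly level.

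Serpinc1 encodes antithrombin, the serpin that traps thrombin and factor Xa on heparan sulfate. It lies at chr1:160978585-161005863 on the plus strand (GRCm38). It measured 7.78, 6.66, 6.14 and 6.83 CPM in the duodenal libraries, 7.39, 8.91, 8.52 and 9.94 CPM in the jejunal, and 9.79, 9.87, 8.72 and 9.86 CPM in the ileal. The ceco-colonic libraries held 22.6, 26.6, 20.3 and 21.4 CPM and the inguinal 5.76, 5.78, 5.66 and 6.2 CPM. All 4 ceco-colonic libraries stood above every other library, whereas jejunum and ileum overlapped each other, and the duodenum overlapped both the jejunum and the inguinal node. The fitted log2 difference was -1.46 ± 0.072 (SE) for small intestinal minus ceco-colonic nodes, a fold of 2.75, and 0.87 ± 0.0799 for gut-draining minus inguinal nodes. The first value was -0.76, and the second 0.58, when estimated transcript counts were summed without the length scaling of the deposited gene table, so the size of the difference depends on how the transcripts are weighed.

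Levels of the single transcripts follow, and their part in that dependence was not tested. Of the 8 annotated Serpinc1 transcripts, only the full-length Serpinc1-201 reaches the neighbouring gene Zbtb37, which runs on the opposite strand at chr1:161002922-161034849. Its last exon, beyond its stop codon, shares 2942 of the transcript's 4970 bases (59.2%) with exons of Zbtb37. Zbtb37, which encodes a zinc finger and BTB domain protein, ranged from 23.1 to 44.1 CPM over the 20 libraries. The sources used here do not say that the counting used strand, and without it reads of the 2 genes in the shared stretch cannot be told apart. Serpinc1-201 averaged 1.95 ± 0.25 TPM in small intestinal nodes (SD, n = 12) and 2.86 ± 0.333 TPM in ceco-colonic nodes (n = 4). The other 7 transcripts together, none of which reaches Zbtb37, averaged 1.73 ± 0.558 TPM in small intestinal and 7.46 ± 1.0 TPM in ceco-colonic nodes. Ceco-colonic levels were thus 1.47 times the small intestinal ones for Serpinc1-201 and 4.31 times for the transcripts clear of Zbtb37, a grouping chosen after the data were seen. The transcripts also differ in length: beside the 4970 bases of Serpinc1-201, Serpinc1-203 has 3186 and Serpinc1-205 has 1044. The parts of length and of Zbtb37 reads in these levels were not tested. Zbtb37 itself did not pass the test, with a log2 difference of -0.21 ± 0.1 between small intestinal and ceco-colonic nodes (adjusted p = 0.191) and -0.18 ± 0.097 between gut-draining and inguinal nodes (adjusted p = 0.195).

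**Figure D2:**
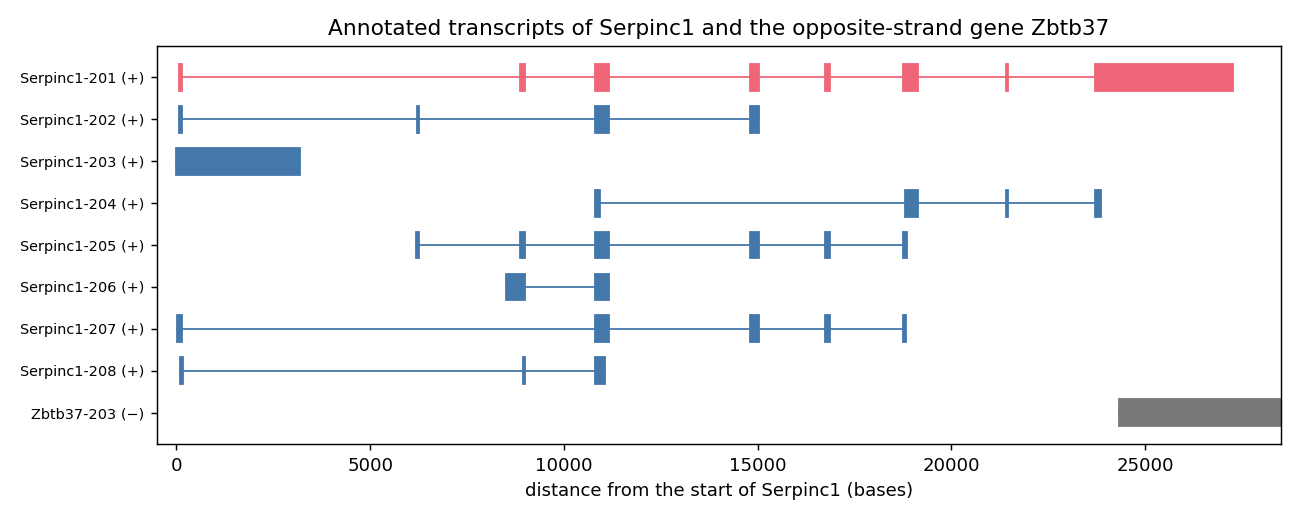
Exons (boxes) of the 8 annotated Serpinc1 transcripts and of Zbtb37-203, by distance in bases from the start of Serpinc1 (GRCm38, GENCODE M21), with strand in brackets. Only the last exon of Serpinc1-201 (red) lies over the Zbtb37 exon (grey), which runs on past the right edge.

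**Figure D3:**
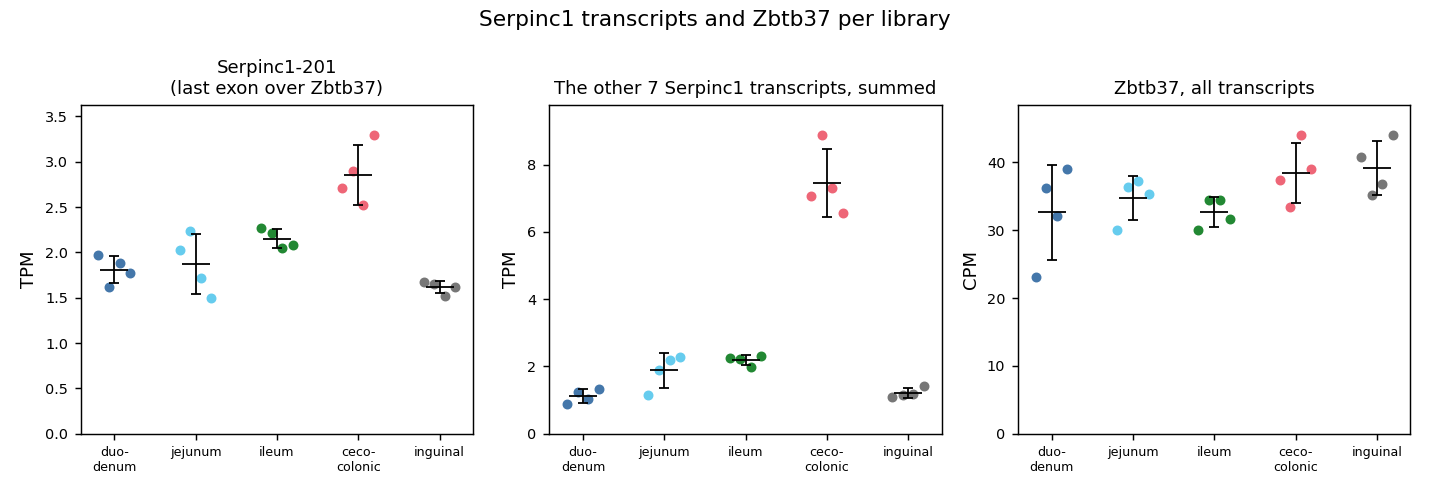
TPM of Serpinc1-201, summed TPM of the other 7 Serpinc1 transcripts, and CPM of Zbtb37 per library (points), with the mean and SD of each position (black bars; n = 4). The ceco-colonic libraries stand at 6.56 to 8.89 TPM for the transcripts clear of Zbtb37, against at most 2.31 TPM in small intestinal libraries, while the Zbtb37 values of small intestinal and ceco-colonic libraries overlap.

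Among the transcripts clear of Zbtb37, Serpinc1-205 carried most of the level, at 0.985 ± 0.395 TPM in small intestinal and 4.09 ± 0.686 TPM in ceco-colonic nodes. Serpinc1-204, annotated as a target of nonsense-mediated decay, averaged 0.0633 ± 0.0985 TPM in small intestinal nodes and 1.93 ± 0.352 TPM in ceco-colonic nodes, where it rested on 126 to 214 estimated counts per library. It was listed at 0 in all duodenal and all inguinal libraries. The 2 retained-intron transcripts differed from each other. Serpinc1-203 measured 0.352 ± 0.0515 TPM in small intestinal and 0.385 ± 0.0776 TPM in ceco-colonic nodes, 1.09 times as high in ceco-colonic nodes. Serpinc1-206 measured 0.259 ± 0.128 TPM in small intestinal and 0.699 ± 0.19 TPM in ceco-colonic nodes, 2.7 times as high in ceco-colonic nodes.

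The share of a gene's TPM that each transcript holds was tested over 20 transcripts of the members by an exact two-sided permutation test, with Benjamini-Hochberg adjustment over the 20. A share also moves with the total of its gene, from which the genes were chosen, and the share of one transcript falls where another's level rises. The Serpinc1 shares are therefore given with no p, though they count among the 20 of the adjustment. The same limit holds for the Tfpi and F13a1 shares below, whose genes were chosen alike. Their p-values describe these libraries and are no independent support for a change in transcript use. Serpinc1-201 held 53.9 ± 8.8% of Serpinc1 in small intestinal and 27.9 ± 3.9% in ceco-colonic nodes, although its own level was 1.47 times as high in ceco-colonic nodes. Serpinc1-203, whose level differed little, held 9.9 ± 2.4% in small intestinal and 3.7 ± 0.6% in ceco-colonic nodes. Serpinc1-205 held 25.9 ± 7.6% in small intestinal and 39.6 ± 4.7% in ceco-colonic nodes. Serpinc1-206 held 6.8 ± 2.6% in small intestinal and 6.7 ± 1.4% in ceco-colonic nodes. The 10 hepatocyte markers, of the tissue best known for antithrombin, summed to 1.78 to 2.99 CPM in small intestinal and 2.07 to 2.35 CPM in ceco-colonic nodes. They summed to 2.5 to 3.29 CPM in inguinal nodes, with Ambp listed at 0 in all 4, and Alb reached at most 1.17 CPM in any library. Of the 6 hepatocyte markers tested, 2 were higher and 2 lower in small intestinal than in ceco-colonic nodes.

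Tfpi encodes tissue factor pathway inhibitor, which blocks the complex of tissue factor and factor VIIa together with factor Xa, and it lies at chr2:84432855-84476775 on the minus strand. Its CPM were 43.4, 36.4, 43.7 and 38.1 in the duodenum, 45.3, 44.7, 42.9 and 36.1 in the jejunum, and 43.5, 40.8, 38.1 and 42.3 in the ileum. They were 34.1, 35, 26.4 and 30 in ceco-colonic and 36.9, 36.9, 37.2 and 38.3 in inguinal nodes. In CPM every small intestinal library was above every ceco-colonic one, by a fold of 1.32 (log2 0.40 ± 0.0725), the opposite direction to Serpinc1. In TPM the groups overlapped, since jejunal library 4, at 19.2 TPM, lay within the ceco-colonic range of 17.9 to 21.8 TPM. The 3 small intestinal positions overlapped one another and the inguinal node, and the gut-draining minus inguinal difference was 0.05 ± 0.0688 on the log2 scale.

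Transcripts of Tfpi end in 3 different ways after a shared exon whose last base is 84444010, and the ends encode different carboxyl termini. The sequences of 1 transcript of each kind, shown because the shares below turn on these ends, are the last 20 bases of the shared exon in lower case and the next 40 coding bases in capitals (GENCODE M21, GRCm38, 5′ to 3′ on the minus strand).
Tfpi-201: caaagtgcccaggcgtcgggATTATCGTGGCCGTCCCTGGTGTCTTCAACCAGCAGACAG
Tfpi-205: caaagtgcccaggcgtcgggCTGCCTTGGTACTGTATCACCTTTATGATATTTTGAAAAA
Tfpi-203: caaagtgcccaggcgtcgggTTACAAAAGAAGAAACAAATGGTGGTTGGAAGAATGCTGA

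Tfpi-201, with its stop codon at 84433098, held 39.2 ± 2.4% of Tfpi in small intestinal and 43.2 ± 2.4% in ceco-colonic nodes, which did not pass (exact permutation test, adjusted p = 0.0527) but did with shares of estimated counts (adjusted p = 0.00577). Tfpi-205, with its stop codon at 84442872, held 22.2 ± 2.0% in small intestinal and 17.9 ± 1.2% in ceco-colonic nodes and passed (exact p = 0.0011, adjusted p = 0.00733). Its adjusted p was 0.0586 without ceco-colonic library 2. Serpinc1-201 and Serpinc1-203 had smaller exact p-values in this comparison and count in the adjustment. The adjusted p of Tfpi-205 and of Tfpi-201 is therefore smaller than it would be without the Serpinc1 shares. The Tfpi total also differed between these nodes, so its shares carry the limit given above. Grouped by stop codon, a grouping made after the data were seen, transcripts ending at 84433098 made up 49.7 ± 3.58% in small intestinal and 55.4 ± 1.3% in ceco-colonic nodes. Those ending at 84442872 made up 36.8 ± 3.17% in small intestinal and 32.1 ± 1.56% in ceco-colonic nodes. The end at 84443205, shown by Tfpi-203, made up 9.22 ± 1.26% in small intestinal and 8.98 ± 0.846% in ceco-colonic nodes. In TPM, the forms ending at 84433098 measured 12.6 ± 1.12 in small intestinal and 11.1 ± 1.16 in ceco-colonic nodes, and those ending at 84442872 measured 9.46 ± 1.75 in small intestinal and 6.39 ± 0.332 in ceco-colonic nodes. Those ending at 84443205 measured 2.38 ± 0.512 TPM in small intestinal and 1.79 ± 0.105 TPM in ceco-colonic nodes.

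Thbd encodes thrombomodulin, the endothelial receptor that turns thrombin towards activating protein C, at chr2:148404466-148408188 on the minus strand. It measured 41.4, 51.4, 64.3 and 47.1 CPM in duodenal, 56.3, 68.8, 61.6 and 51.5 CPM in jejunal and 67.1, 61.2, 67.8 and 81.8 CPM in ileal libraries. Ceco-colonic libraries had 62.9, 61.6, 58.3 and 57.2 CPM and inguinal ones 93.2, 88.7, 86.1 and 85.7 CPM. Every gut-draining library was below every inguinal one, by a fold of 1.48 (log2 -0.57 ± 0.0839), and the 4 gut positions overlapped one another. Small intestinal and ceco-colonic nodes differed by -0.01 ± 0.09 on the log2 scale. Procr encodes the endothelial protein C receptor, which presents protein C to the complex of thrombin and thrombomodulin, at chr2:155751117-155755471 on the plus strand. It varied least of the 9 genes between positions, with a position mean of 49.9 CPM at its highest (ileum) and 42 CPM at its lowest (ceco-colonic), and 40.8 to 47.5 CPM in inguinal libraries. Its log2 differences were 0.03 ± 0.0549 for gut-draining minus inguinal and 0.18 ± 0.0572 for small intestinal minus ceco-colonic nodes. Of this receptor pair, Thbd separated the inguinal libraries from all others and Procr did not.

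**Figure D4:**
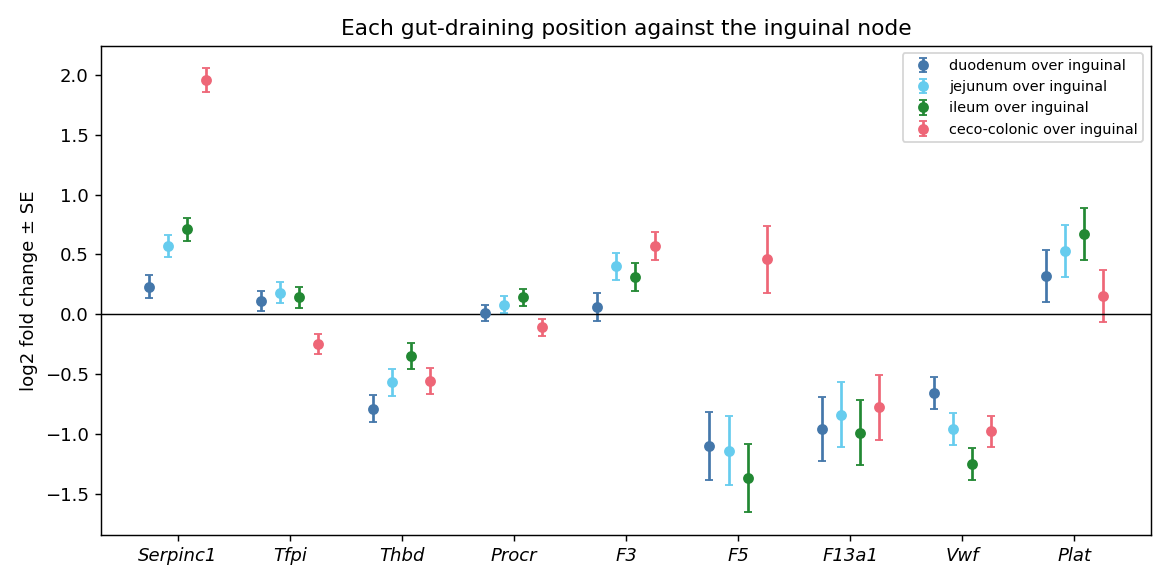
Log2 fold change (± SE, edgeR fit over 20 libraries) of each gut-draining position over the inguinal node for the 9 genes; the 4 points of a gene share the same inguinal libraries. Vwf, Thbd and F13a1 lie under 0 at all 4 positions, Serpinc1 reaches 1.96 in the ceco-colonic node, and F5 and Tfpi change sign between the small intestinal positions and the ceco-colonic node.

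F3 encodes tissue factor, the membrane receptor that starts coagulation, at chr3:121723537-121735048 on the plus strand. Its CPM were 16.5, 20.6, 17 and 14.7 in the duodenum, 23.8, 21, 22.2 and 20.3 in the jejunum, 19.3, 22.5, 16.6 and 23.6 in the ileum and 22.4, 27.1, 22.8 and 25.7 in ceco-colonic nodes, with 18.3, 14, 15.7 and 18.1 in inguinal nodes. Jejunal and ceco-colonic libraries did not overlap the inguinal ones, while duodenal and ileal libraries did. The log2 difference was 0.34 ± 0.0931 for gut-draining minus inguinal and -0.31 ± 0.0922 for small intestinal minus ceco-colonic nodes.

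F5 encodes factor V, the cofactor of factor Xa, at chr1:164151838-164220277 on the plus strand. Small intestinal libraries lay between 1.08 and 2.03 CPM. Ceco-colonic libraries split, at 2.45, 2.27, 6.23 and 5.76 CPM, and inguinal libraries measured 2.92, 2.62, 3.07 and 3.53 CPM. No small intestinal library reached the ceco-colonic or the inguinal ones, and the log2 difference of small intestinal minus ceco-colonic nodes was -1.67 ± 0.213, a fold of 3.17. Ceco-colonic libraries 3 and 4 were above, and libraries 1 and 2 below, all 4 inguinal libraries, so the ceco-colonic and inguinal nodes could not be ordered (log2 0.46 ± 0.279). At 0.419 TPM over all libraries, F5 was the lowest of the 9 genes and the one with the widest spread within positions on the log2 scale.

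F13a1 encodes the A subunit of factor XIII, the transglutaminase that cross-links fibrin, at chr13:36867178-37050244 on the minus strand. Gut-draining libraries ranged from 7.36 to 22.2 CPM, with the top value in duodenal library 3, and inguinal libraries held 24.7, 20.9, 19.2 and 30.3 CPM. Apart from that duodenal library, all gut-draining libraries were below all inguinal ones, and the log2 difference was -0.89 ± 0.2, a fold of 1.85. F13a1-202 held 5.2 ± 2.8% of the gene's TPM in gut-draining nodes (n = 16) and 11.4 ± 1.9% in inguinal nodes (n = 4), and it was the only one of the 20 transcript shares to pass in this comparison (exact permutation test over 4845 labellings, p = 0.00103, adjusted p = 0.0206). Its adjusted p was 0.0826 without inguinal library 1 and likewise without library 3, 0.124 without library 4, and 0.202 when the log2 ratio of TPM was compared in place of the share. The F13a1 total also differed between these nodes, so the share of F13a1-202 carries the limit given above. The transcript's annotated length matched the deposited one, which held for 1 of the 5 F13a1 transcripts and for all transcripts of the other 8 genes. Macrophage markers, 10 genes, summed to 2745 to 5622 CPM in gut-draining and 3661 to 4060 CPM in inguinal nodes, with 4 higher and 3 lower in gut-draining nodes. Monocyte markers, 6 genes, summed to 959 to 1459 CPM in gut-draining and 805 to 1012 CPM in inguinal nodes, with 2 higher and 3 lower in gut-draining nodes. Their part in the F13a1 result was not tested.

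Vwf encodes von Willebrand factor, which tethers platelets to injured vessel wall and carries factor VIII, at chr6:125546774-125686679 on the plus strand. It measured 130, 154, 173 and 120 CPM in duodenal, 142, 87.1, 116 and 123 CPM in jejunal, 108, 88, 104 and 81.7 CPM in ileal and 123, 124, 104 and 112 CPM in ceco-colonic libraries. Inguinal libraries held 220, 244, 242 and 206 CPM. Every gut-draining library was below every inguinal one, by a fold of 1.95 (log2 -0.96 ± 0.0971), with the ileum lowest (log2 -1.25 ± 0.133) and the duodenum nearest (log2 -0.66 ± 0.131). Among gut positions, the duodenal libraries were above the ileal ones without overlap, and the jejunal and ceco-colonic libraries overlapped each other and the ileum. High endothelial venule markers, 8 genes, moved with Vwf: they summed to 574 to 1192 CPM in gut-draining and 1605 to 1742 CPM in inguinal nodes, and 6 of the 8 were lower and none higher in gut-draining nodes. The 10 general blood endothelial markers summed to 973 to 1626 CPM in gut-draining and 1355 to 1502 CPM in inguinal nodes, with 1 higher and 4 lower. Platelet and megakaryocyte markers, 11 genes, summed to 94.2 to 236 CPM in gut-draining and 129 to 132 CPM in inguinal nodes, with 1 higher and 2 lower. Most of that sum was Itga2b, at 108 ± 34.7 CPM in gut-draining and 94.8 ± 2.02 CPM in inguinal nodes, and Clec1b, the higher gene. Pf4, 1 of the lower genes, averaged 2.94 ± 0.525 CPM in gut-draining and 4.79 ± 0.657 CPM in inguinal nodes. The part of these cells in the Vwf and Thbd values was not tested.

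Plat encodes tissue plasminogen activator, which converts plasminogen to plasmin on fibrin, at chr8:22757727-22782844 on the plus strand. Its CPM were 6.55, 13.7, 18 and 8.77 in the duodenum, 11.2, 18.4, 14.1 and 11.2 in the jejunum, 14, 13.6, 14.8 and 17.7 in the ileum, 9.81, 11.2, 10.9 and 9.94 in ceco-colonic and 9.49, 9.85, 8.55 and 9.96 in inguinal nodes. Jejunal and ileal libraries were all above the inguinal ones, while duodenal libraries lay on both sides of them. The log2 difference was 0.42 ± 0.176 for gut-draining minus inguinal nodes and 0.36 ± 0.18 for small intestinal minus ceco-colonic nodes.

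Counting the 9 genes by CPM, 2 (Vwf and Thbd) had gut-draining libraries that did not overlap the inguinal ones, where 9.53% of all genes tested did so. Between small intestinal and ceco-colonic nodes 3 genes did (Serpinc1 and F5 lower, Tfpi higher in small intestinal nodes, the last in CPM but not in TPM), where 6.18% of all genes did. Since the genes were picked from these values, the counts describe them and are read no further. As a description over the 16 gut-draining libraries, whose points share positions and depth, log2 CPM of F5 and Tfpi ran opposite (Pearson's r = -0.808), as did Serpinc1 and Tfpi (r = -0.727), while Thbd and Plat ran together (r = 0.811). Vwf and Thbd, both highest in the inguinal node, had r = 0.439 over all 20 libraries but r = -0.515 over the 16 gut-draining ones.

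The genes whose log2 CPM over the 20 libraries was most like each member's were taken as the 3 with the highest Pearson's r among 11651 genes with a mean of 5 CPM or more (11652 for F5). The libraries fall into positions, so these coefficients mostly carry differences between positions. For Serpinc1 they were Ttc39a (r = 0.955), Fam89a (r = 0.935) and the death receptor gene Fas (r = 0.933). For Vwf they were the homeobox gene Msx1 (r = 0.964), the sialyltransferase gene St6gal1 and the receptor modulator gene Ramp1. Thbd was followed by Agfg1 (r = 0.947), Scn3b and Tcaf2, Tfpi by the cathepsin gene Ctso (r = 0.957), Gpr34 and Cpq, and Procr by Smox (r = 0.864), Pofut2 and Sumo3. F5 was nearest to Trerf1 (r = 0.898), the lipoxygenase gene Alox15 and Rasgrp4, and F13a1 to the stromal gene Cd248 (r = 0.883), Igfbp5 and Cbr2. Plat was nearest to Trp53inp2 (r = 0.907), Fndc1 and the endothelial nitric oxide synthase gene Nos3, and F3, with the lowest coefficients, to Sepsecs (r = 0.788), P2rx5 and Vwa5a.

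Other genes of the haemostatic system, 54 in 6 lists, were tested in the same fit across all genes, and 45 passed the filter on low counts. Of these 45, 26 differed between gut-draining and inguinal nodes, 11 higher and 15 lower in gut-draining nodes, beside 26.3% of all genes tested. Their median log2 difference was -0.03, beside 0.002 over all genes. Between small intestinal and ceco-colonic nodes 20 of the 45 differed, 10 higher and 10 lower in small intestinal nodes, beside 16.6% of all genes, with a median of -0.02 beside 0.0064. Among the 4 gut positions 22 of the 45 differed, beside 21.3%. The lists were fixed with results of these data known.

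Coagulation factors and fibrinogen chains gave 2 higher and 2 lower of 8 tested between gut-draining and inguinal nodes, with a median log2 difference of 0.03, and 1 higher and 3 lower between small intestinal and ceco-colonic nodes, with a median of -0.3. In the first comparison the 2 higher genes, F9 and Kng2, and F12, 1 of the 2 lower, averaged under 1 CPM in both groups. Kng2 averaged 0.195 ± 0.203 CPM in gut-draining and 0.0248 ± 0.0223 CPM in inguinal nodes. It also counts among the 3 lower in the second comparison, again under 1 CPM in both groups. Fga and Fgb, the fibrinogen alpha and beta chains, were listed at 0 in all 20 libraries. F2, prothrombin, was low throughout, at 0.768 ± 0.119 CPM in gut-draining and 1.31 ± 0.0392 CPM in inguinal nodes (log2 -0.77 ± 0.115, adjusted p = 2.94e-05). F8, factor VIII, which circulates bound to von Willebrand factor, averaged 202 ± 43.3 CPM in small intestinal nodes, against 69.3 ± 12 CPM in ceco-colonic nodes (log2 1.53 ± 0.137, adjusted p = 1.29e-07). Position means of F8 were 163 CPM in the duodenum, 230 CPM in the jejunum and 213 CPM in the ileum. F10, factor X, had the opposite sign, at 3.72 ± 0.835 CPM in small intestinal and 7.8 ± 1.21 CPM in ceco-colonic nodes (log2 -1.08 ± 0.149, adjusted p = 2.8e-05). Small intestinal nodes thus held less F5, F10 and Serpinc1 and more F8 and Tfpi than ceco-colonic nodes, of which only F8 and F10 were tested. Lymphatic endothelial markers, 9 genes, moved in the direction of F8, with 7 higher and 1 lower in small intestinal nodes. Their summed level ran from 2406 to 3663 CPM there and from 3643 to 4361 CPM in ceco-colonic nodes. Ccl21a, the 1 lower gene, made up most of that sum. It averaged 2080 ± 497 CPM in small intestinal and 3445 ± 344 CPM in ceco-colonic nodes. Blood endothelial markers, 10 genes, also moved in the direction of F8, with 7 higher and none lower in small intestinal nodes (median log2 difference 0.49). Their summed level did not overlap, at 1251 to 1626 CPM in small intestinal and 973 to 1060 CPM in ceco-colonic nodes. The part of either list in the F8 result was not tested.

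Natural anticoagulants and their helpers gave 4 higher and 1 lower of 9 tested in gut-draining nodes (median log2 difference 0.05) and 3 higher and 1 lower in small intestinal nodes (median 0.05). In the first comparison the 1 lower gene was Gas6. Of the 4 higher, Serpina5 lay near the floor, at 0.0482 ± 0.0263 CPM in gut-draining and 0.00472 ± 0.00428 CPM in inguinal nodes. Serpind1, heparin cofactor II, another heparin-dependent serpin that inhibits thrombin, had the opposite sign to Serpinc1 between the gut positions. It measured 2.39 ± 0.361 CPM in small intestinal and 0.626 ± 0.0833 CPM in ceco-colonic nodes (log2 1.93 ± 0.169, adjusted p = 9.42e-08). In gut-draining nodes as a whole it averaged 1.95 ± 0.849 CPM, against 0.656 ± 0.204 CPM in inguinal nodes (log2 1.38 ± 0.161, adjusted p = 1.35e-06), although the ceco-colonic mean was near the inguinal one. Hs3st1, the sulfotransferase that makes antithrombin-binding heparan sulfate, was likewise opposite in sign to Serpinc1 between the gut positions, at 12.4 ± 2.33 CPM in small intestinal and 4.69 ± 0.365 CPM in ceco-colonic nodes (log2 1.39 ± 0.117, adjusted p = 5.45e-08). It averaged 10.4 ± 3.97 CPM in gut-draining and 6.63 ± 0.473 CPM in inguinal nodes (log2 0.54 ± 0.108, adjusted p = 0.000621). The sign is that of Serpinc1 in that comparison, but it came from other positions. The ceco-colonic mean of Hs3st1 was below the inguinal one, whereas Serpinc1 was highest in ceco-colonic nodes. Serpine2, protease nexin 1, another thrombin inhibitor, averaged 21.2 ± 7.28 CPM in gut-draining and 10.1 ± 0.463 CPM in inguinal nodes (log2 1.04 ± 0.24, adjusted p = 0.00236). Gas6, a vitamin K-dependent ligand of TAM receptors, was lower in gut-draining nodes, at 244 ± 29 CPM, than in inguinal nodes, at 407 ± 52.7 CPM (log2 -0.75 ± 0.0706, adjusted p = 7.54e-08).

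Fibrinolysis genes gave 2 higher and 5 lower of 8 tested in gut-draining nodes (median log2 difference -0.41) and none higher and 4 lower in small intestinal nodes (median -0.42). Among the 5 lower, Serpinb2 and Serpinf2 averaged under 1 CPM in both groups. Serpinb2 measured 0.216 ± 0.0933 CPM in gut-draining and 0.81 ± 0.2 CPM in inguinal nodes, and Serpinf2 0.201 ± 0.0637 and 0.323 ± 0.082 CPM. Plau, urokinase, the other plasminogen activator, averaged 31.4 ± 5.38 CPM in gut-draining and 44.1 ± 3.52 CPM in inguinal nodes (log2 -0.51 ± 0.0507, adjusted p = 1.64e-07), where Plat's difference was 0.42. Anxa2 and S100a10, which form a plasminogen receptor, were both lower in gut-draining nodes. Anxa2 averaged 240 ± 48.9 CPM in gut-draining and 294 ± 13.6 CPM in inguinal nodes (log2 -0.32 ± 0.0533, adjusted p = 0.000121), and 216 ± 23.4 CPM in small intestinal against 314 ± 17.7 CPM in ceco-colonic nodes (log2 -0.55 ± 0.0546, adjusted p = 5.28e-07). S100a10 averaged 57.2 ± 9.63 CPM in gut-draining and 85.4 ± 2.97 CPM in inguinal nodes (log2 -0.59 ± 0.0738, adjusted p = 3.34e-06).

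Protease-activated receptors, through which thrombin and other proteases signal, gave 1 higher and 2 lower of 4 in gut-draining nodes (median log2 difference -0.33) and none higher and 2 lower in small intestinal nodes (median -0.32). F2rl1 averaged 2.72 ± 0.555 CPM in gut-draining and 4.05 ± 0.182 CPM in inguinal nodes (log2 -0.60 ± 0.0796, adjusted p = 7.5e-06). F2rl2 averaged 3.81 ± 0.94 CPM in gut-draining and 6.32 ± 0.635 CPM in inguinal nodes (log2 -0.76 ± 0.097, adjusted p = 4.26e-06). Both were also lower in small intestinal than in ceco-colonic nodes, F2rl1 with a log2 difference of -0.51 ± 0.0833 (adjusted p = 0.000166) and F2rl2 with one of -0.61 ± 0.102 (adjusted p = 0.000233). F2rl3 was higher in gut-draining nodes, at 1.31 ± 0.153 CPM against 0.825 ± 0.191 CPM in inguinal nodes (log2 0.66 ± 0.13, adjusted p = 0.000556).

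Endothelial antithrombotic and Vwf-handling genes gave 2 higher and 3 lower of 10 in gut-draining nodes and 3 higher and none lower in small intestinal nodes (median log2 difference 0.17). Klf2 and Klf4, flow-induced transcription factors of endothelium, were lower in gut-draining nodes. Klf4 averaged 39.6 ± 4.42 CPM in gut-draining and 70.1 ± 7.86 CPM in inguinal nodes (log2 -0.82 ± 0.0775, adjusted p = 7.03e-08), and Klf2 averaged 68.3 ± 10.2 CPM in gut-draining and 99 ± 4.55 CPM in inguinal nodes (log2 -0.54 ± 0.0923, adjusted p = 0.000137). Ptgis, prostacyclin synthase, had the largest difference of the named haemostasis genes that averaged 1 CPM or more in the higher group. It measured 15.8 ± 7.37 CPM in gut-draining and 3.06 ± 0.319 CPM in inguinal nodes (log2 2.30 ± 0.249, adjusted p = 4.89e-07). It averaged 18.2 ± 6.99 CPM in small intestinal and 8.66 ± 1.09 CPM in ceco-colonic nodes (log2 1.06 ± 0.23, adjusted p = 0.00254). Ptgs1, cyclooxygenase 1, upstream of it, averaged 64.1 ± 8.23 CPM in gut-draining and 44.5 ± 1.99 CPM in inguinal nodes (log2 0.52 ± 0.0675, adjusted p = 5.43e-06). Stab2, a scavenger receptor of sinus endothelium that clears von Willebrand factor and also stands on the lymphatic endothelial marker list, averaged 266 ± 64 CPM in small intestinal and 134 ± 24 CPM in ceco-colonic nodes (log2 0.96 ± 0.112, adjusted p = 3.62e-06).

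Vitamin K cycle and factor secretion genes gave none higher and 2 lower of 6 in gut-draining nodes (median log2 difference -0.01) and 3 higher and none lower in small intestinal nodes (median 0.11), all by small amounts. Furin, the protease that matures von Willebrand factor, averaged 118 ± 7.51 CPM in gut-draining and 129 ± 5.67 CPM in inguinal nodes (log2 -0.13 ± 0.0421, adjusted p = 0.0256). Vkorc1l1, a paralog of the vitamin K reductase, averaged 36.8 ± 2.24 CPM in gut-draining and 39.9 ± 1.22 CPM in inguinal nodes (log2 -0.12 ± 0.0379, adjusted p = 0.026). Mcfd2, the cargo adaptor for factors V and VIII, averaged 78.4 ± 5.57 CPM in small intestinal and 69.6 ± 2.16 CPM in ceco-colonic nodes (log2 0.17 ± 0.0508, adjusted p = 0.0244), and Vkorc1, the vitamin K reductase itself, averaged 25.3 ± 2.27 CPM in small intestinal and 22 ± 1.04 CPM in ceco-colonic nodes (log2 0.21 ± 0.0674, adjusted p = 0.0413). These 4 calls were lost when single libraries were left out. Furin had an adjusted p of 0.07, 0.11 and 0.0846 without inguinal library 2, 3 or 4, and Vkorc1l1 one of 0.0856, 0.0549 and 0.0788 without inguinal library 1, 2 or 3. Mcfd2 had one of 0.0968, 0.0541 and 0.0932 without ceco-colonic library 1, 2 or 4. Vkorc1 lost its call without any one of 13 libraries, with adjusted p between 0.0516 and 0.151. Without the filter on low counts the adjusted p was 0.0521 for Furin, 0.0643 for Vkorc1l1 and 0.055 for Vkorc1, and with only the compared groups in the fit it was 0.0684 for Mcfd2 and 0.0925 for Vkorc1. It was also 0.0998 for Vkorc1l1 with plain sums of transcript counts and 0.0519 for Vkorc1 with other size factors.

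**Figure D5:**
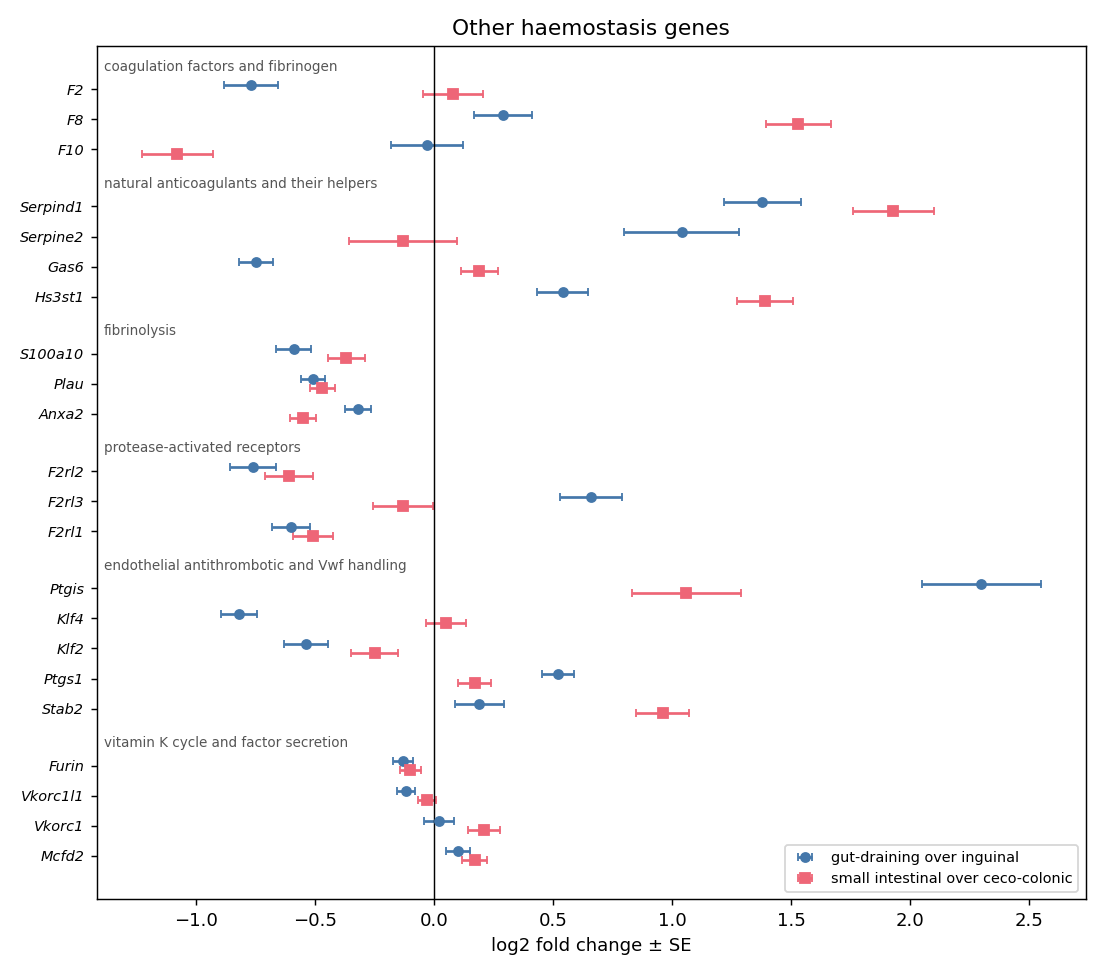
Log2 fold change (± SE, edgeR fit over 20 libraries) of the haemostasis genes described here that are not among the 9 and reach 1 CPM or more in the higher group, by list, for gut-draining over inguinal nodes (blue circles) and small intestinal over ceco-colonic nodes (red squares). Ptgis reaches 2.30 in the first comparison, and Serpind1 (1.93), F8 (1.53) and Hs3st1 (1.39) lead the second, with F10 at -1.08.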

How the data were processed

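Bulk polyA RNA of whole lymph nodes was analysed in 20 libraries, grouped by position from the sample titles. The authors deposited a gene table of estimated counts that are not whole numbers; by its values it holds length-scaled TPM summed per gene. They also deposited transcript tables with estimated counts and TPM per library. The submitters' processing notes name kallisto, limma, edgeR and the builds GRCm39 and mm10; no version, role or strand setting is given in the sources used here. Coordinates and sequences come from GENCODE M21 on GRCm38, matched by transcript name.

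The gene table's counts were rounded and fitted with edgeR 4.0.16 (R 4.3.3): TMM, filterByExpr with a minimum count of 10 by position, quasi-likelihood test, 1 mean per position, Benjamini-Hochberg over 29411 genes. The gut-draining value is the mean of 4 position means. CPM use TMM-scaled library sizes. Transcript shares (mean share of 5% to 95%) were compared by exact permutation. limma 3.58.1 (voom) and DESeq2 1.42.0 served as alternatives, and the procedures were tested on simulated data.

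The members, lists and tests were chosen with earlier results of these data known. Genes named from the lists are up to 4 called between gut-draining and inguinal nodes and up to 2 called between small intestinal and ceco-colonic nodes per list, by largest absolute log2 fold change among those at 1 CPM or more; per member, 3 genes of highest correlation, leaving out gene models. A gene this rule names, still counted in its list, and some sequence are not reported here.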

Additional observations from a re-analysis of the deposited data

Results flagged for a closer look

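Of 45 sets of 4 libraries (9 genes at 5 positions), 4 held a library whose gap to its nearest neighbour passed Dixon's 95% critical share of the set's range; chance gives about 1 in 20 such sets. Serpinc1 in ileal library 3 was the lowest of its position, at 8.72 CPM. F13a1 in ileal library 2 was the highest of its position, at 16.5 CPM. F5 was highest of its position in duodenal library 4, at 2.03 CPM, and in jejunal library 1, at 2.02 CPM, both still under every ceco-colonic and inguinal library.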

How the results depend on the processing

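The members' differences and the counts of other haemostasis genes were recomputed with other size factors, no filter on low counts, DESeq2, limma-voom, the replicate block, plain sums of transcript counts, without duodenal libraries 1 and 2, with only the compared groups, and without each library in turn. No value past its threshold changed sign. Differences near 0 did: for gut-draining minus inguinal nodes Procr, 0.03 as reported, was -0.02 without inguinal library 1, and for small intestinal minus ceco-colonic nodes Vwf, 0.02 as reported, ranged down to -0.02 and Thbd, -0.01 as reported, up to 0.03. F10, F2, Vkorc1 and some transcript shares changed sign likewise, each in a comparison where it did not pass. The Serpinc1 difference moved beyond the spread between replicates only under plain sums of transcript counts, to 0.58 for gut-draining minus inguinal and -0.76 for small intestinal minus ceco-colonic nodes; the scaling by transcript length is the only step that changed. The other members' differences moved by less. For gut-draining against inguinal nodes the fit already holds both groups in full, so the restricted fit is the same. The count of transcript shares past the threshold between gut-draining and inguinal nodes, 1 as reported, was 3 with shares of estimated counts and 0 with a minimum mean share of 10% or with log2 ratios of TPM, and 0 to 2 without single libraries. At the 10% minimum F13a1-202, the 1 share that passed, was left out of the test, so that 0 is no second test of it. Between small intestinal and ceco-colonic nodes it was 4, of which 3 were of Serpinc1, and 2 to 5 without single libraries. Replicate numbers recur at every position: deviations of same-numbered libraries correlated with a median of 0.075 (-0.0863 to 0.357, over 0.1 in 13 of 40 pairs), against -0.0209 for different-numbered libraries (over 0.1 in 9 of 120 pairs). Same-numbered libraries thus ran higher than the others. Not every same-numbered pair was over 0.1, so the numbers were not taken as pairs. That rule is strict and does not show the libraries to be unrelated. Blocking by number raised the genes called from 7724 to 8528 between gut-draining and inguinal nodes. Between small intestinal and ceco-colonic nodes it raised them from 4894 to 5575. With the replicate block, 11 other haemostasis genes were higher and 15 lower in gut-draining nodes, 11 were higher and 12 lower in small intestinal nodes, and the Serpinc1 differences were 0.87 and -1.46. Single named genes and transcripts kept their side of the threshold in 2057 recomputed values, lost it in 38 and gained it in 22. Over the alternatives other than single libraries left out, gut-draining nodes had 11 to 12 genes higher and 12 to 15 lower, and small intestinal nodes 7 to 11 higher and 10 to 12 lower; without single libraries the ranges were 10 to 12, 11 to 15, 7 to 11 and 10 to 12. Depth limits the rarer transcripts: Serpinc1-202 rested on 0 to 58.6 estimated counts per gut-draining library.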
